A study of Sus scrofa with 20 samples.

Results

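Ribosomal proteins and translation factors were taken as all genes whose platform symbol starts with RPL or RPS and a digit (ribosomal S6 kinases left out), RPLP, MRPL, MRPS, EIF or EEF. They numbered 163 of the 6765 genes with a single symbol, and where a gene had several probe sets, the one with the highest mean signal (20 arrays) stood for it. Proteins of the cytosolic ribosome made up 63 of them, 38 of the large subunit (RPL, RPLP) and 25 of the small subunit (RPS). Proteins of the mitochondrial ribosome made up 58, 36 of the large subunit (MRPL) and 22 of the small subunit (MRPS). The rest were 36 initiation factors (EIF) and 6 genes named for elongation factors (EEF). A few carry the prefix without being core parts of the machinery, such as the SIRT1 regulator RPS19BP1, the synthetase-complex protein EEF1E1 and the methyltransferase EEF1AKMT1.

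The study asked how neurologic death (ND, brain death) changes gene expression in the kidney, the organ most often taken from brain-dead donors. Kidney tissue of 20 pigs was profiled on 1-colour arrays, with 10 animals randomized to ND and 10 to control. Both groups had anesthesia, catheters and a hole drilled in the skull, and in the ND group a balloon under the dura was also inflated until ND was established. All animals were ventilated for 6 h before kidney was removed and frozen. Boluses of 2 cc/kg of 0.9% saline were given when arterial pressure called for it, with a floor of 35 mmHg for mean arterial pressure. Strain, sex and age are not given in the labels. The labels number the animals, and each array was taken as 1 animal.

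Cytosolic ribosomes translate the messages of nuclear genes and consist of rRNA and a large set of small basic proteins made in nearly equal amounts. Their messages, like those of several elongation factors, carry an oligopyrimidine tract at the start that ties their translation to mTORC1. Mitochondrial ribosomes translate only the few mitochondrial messages, all for oxidative phosphorylation, although their own proteins come from nuclear genes. Proximal tubule cells, which fill most of the renal cortex, are rich in mitochondria. Initiation factors bring the small subunit, the initiator tRNA and the capped message together, and phosphorylation of eIF2 is a common stop signal under stress.

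Values are log2 signals as deposited, and a difference is the ND mean minus the control mean on that scale. Array medians lay between 5.09 and 5.35 and were 0.089 higher on average in ND, with 6 ND arrays above the highest control. Animal numbers were not balanced: 7 ND animals and 1 control (Control_02) had low numbers (up to 100), 4 controls had middle numbers (Control_134 to Control_157), and 3 ND animals and 5 controls had high numbers (Control_184 onwards). What these numbers stand for is not given. Of 11 tubule markers 4 were measured, with LRP2 at 13.48, AQP1 at 13.01, SLC22A8 at 10.49 and SLC22A6 at 8.75, and none passed the test. In that order they differed by 0.25, -0.03, -0.23 and -0.50. The mean of the tubule list was 10.05 to 12.05 in ND and 10.85 to 11.83 in controls. Of 6 measured leukocyte markers 1 was called higher in ND (CD3E) and 1 lower (CD14). CD2 (0.83, limma adjusted p = 0.0852, with 10 of 10 ND animals above the control mean) and PTPRC (0.10) did not pass. CD3E was above background on 5 of 10 ND arrays and 0 of 10 control arrays. CD79B and ITGAM were at background on all arrays. The mean of the list was 2.82 to 3.65 in ND and 2.84 to 3.07 in controls. Of 4 measured fibroblast and smooth muscle markers PDGFRB was higher, and DCN (0.59), ACTA2 (-0.10) and COL3A1 (-0.16) did not pass. The list mean was 8.51 to 10.16 in ND and 8.40 to 9.69 in controls. Of 4 measured endothelium markers 0 passed (CDH5 0.26, PECAM1 0.22, VWF 0.12 and TEK -0.53). Of 3 measured adipose markers FABP4, a fatty acid carrier of fat cells and some endothelium, fell by 0.89 on the log2 scale (SE 0.21, limma adjusted p = 0.0160), from 6.58 to 8.15 in controls to 5.71 to 7.28 in ND, while ADIPOQ was at background on all arrays. The mean of that list was 3.68 to 4.14 in ND and 3.93 to 4.47 in controls. The part of cell makeup in the results below was not tested. In whole tissue, fewer cells of a type and less RNA per cell cannot be told apart.

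Of the 163 genes, 16 (9.82%) passed an adjusted p under 0.05 in limma (Benjamini-Hochberg over all 23999 tested probe sets), against 9.99% of all 6765 genes. The 2 shares were close. Of these, 12 were higher in ND (7.36%, against 5.44% of all genes) and 4 were lower (2.45%, against 4.55%). These counts depended on single animals: the number higher was 6 or 7 without ND_86, ND_92, Control_184, Control_187 or Control_190, and the number lower was 7 to 11 without ND_31, ND_47, ND_198 or Control_199. In none of the 163 did the ND and control animals fail to overlap, which held for 0.591% of all genes. The differences were small: 24 of the 163 (14.7%) differed by at least 1.2-fold, against 31.1% of all genes, and 3 by more than 0.5 in log2. Signs differed between the subfamilies. Among cytosolic ribosomal proteins 59 of 63 (93.7%) had a difference above 0, among mitochondrial ribosomal proteins 46 of 58 (79.3%) had one below 0, and among all genes 45.7% were above 0 and 54.3% below. With arrays shifted to the same median, which takes out the higher ND array medians and moves the median of all genes from -0.02 to -0.11, 30 of 38 RPL and 13 of 25 RPS genes were above 0, and 31 of 36 MRPL and 20 of 22 MRPS genes below.

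**Figure D1:**
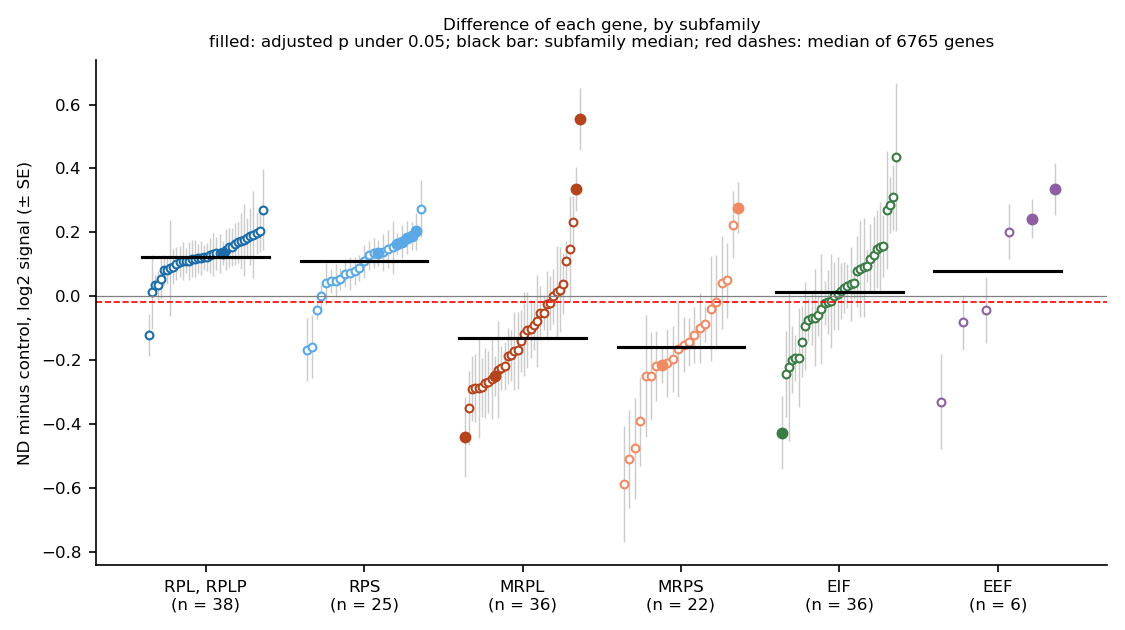
Difference of each gene between ND and control (log2 signal, with its standard error), sorted within each subfamily; filled points passed an adjusted p under 0.05, black bars are subfamily medians and the red dashed line is the median of all 6765 genes. The medians of RPL and RPS are 0.12 and 0.11, those of MRPL and MRPS are -0.13 and -0.16, and EIF and EEF lie between at 0.01 and 0.08, which turn to -0.08 and -0.01 when arrays are shifted to the same median.

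Proteins of the cytosolic small subunit held the most calls. Of 25, 6 rose in ND (24%, against 5.44% of all genes): RPS10, RPS19, RPS24, RPS16, RPS13 and RPS15. None fell. The median difference of the 25 was 0.11, against -0.02 for all genes, and 22 of 25 were above 0. After the shift to the same median the RPS median was 0.02, with 0 called higher and 1 lower; with quantile normalization the median was 0.09 and 7 were called higher. Whether these genes pass thus depends on the scaling.

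RPS10, a protein at the message entry side of the small subunit, read 14.50, 14.57 and 14.79 in ND (lowest, median and highest) and 14.32, 14.43 and 14.50 in controls. All 10 ND animals lay above the control mean and 9 of 10 above the highest control, while the lowest ND animal and the highest control were level to 2 decimals. The difference was 0.16 ± 0.03 (SE, n = 10 per group), or 12.1%, with an adjusted p of 0.00524 by limma. RPS19, a protein needed for maturation of the small subunit and the gene most often mutated in Diamond-Blackfan anemia, read 14.39, 14.55 and 14.78 in ND and 14.28, 14.37 and 14.47 in controls. Here 7 of 10 ND animals lay above the highest control, and the difference was 0.19 ± 0.04 (limma adjusted p = 0.0119). Leaving out any 1 of the 20 animals kept both calls.

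The other 4 calls lay closer to the threshold and each depended on single animals. RPS24, another Diamond-Blackfan gene, read 14.32, 14.41 and 14.78 in ND and 14.13, 14.25 and 14.43 in controls, a difference of 0.18 ± 0.05 (limma adjusted p = 0.0380). Its call was lost without any 1 of ND_47, ND_86, ND_92, Control_02, Control_184, Control_187, Control_190 or Control_197, with adjusted p between 0.0560 and 0.0678. RPS16 read 13.73, 13.85 and 14.15 in ND and 13.50, 13.66 and 13.86 in controls, a difference of 0.20 ± 0.06 (limma adjusted p = 0.0406). For both genes 5 of 10 ND animals lay above the highest control. The RPS16 call was lost without any 1 of ND_22, ND_31, ND_47, ND_86, ND_92, Control_02, Control_184, Control_187, Control_190, Control_197 or Control_199 (adjusted p 0.0553 to 0.0759). RPS13 read 14.22, 14.35 and 14.48 against 14.05, 14.24 and 14.36, a difference of 0.14 ± 0.04 (limma adjusted p = 0.0458), and RPS15 read 13.77, 13.90 and 14.13 against 13.64, 13.77 and 13.93, a difference of 0.17 ± 0.05 (limma adjusted p = 0.049998). The RPS13 call held only when the animal left out was ND_100, ND_193, ND_198, Control_155 or Control_156, and was otherwise lost at 0.0506 to 0.0857. The RPS15 call held only when it was ND_01, ND_193, ND_194, ND_198, Control_155 or Control_157, and was otherwise lost at 0.0515 to 0.0928.

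RPS9 had the highest difference of the subfamily but missed the threshold: ND animals read 12.85, 13.21 and 13.54 and controls 12.71, 12.87 and 13.13, a difference of 0.27 ± 0.09 (limma adjusted p = 0.0702). RPS6, the substrate of S6 kinase, read 13.95 to 14.27 in ND and 13.94 to 14.18 in controls (0.08, adjusted p = 0.218). The genes with the highest signals of the subfamily, RPS20 at 15.1 and RPS29 at 14.9, differed by 0.07 each (adjusted p = 0.236 and 0.329). The 2 lowest differences belonged to genes outside the standard set, RPS19BP1 at -0.17 (adjusted p = 0.240) and the p53-responsive paralog RPS27L at -0.16 (adjusted p = 0.264). The probe set of RPS15A was at background on all 20 arrays, so its value of -0.04 says nothing about that gene.

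The large subunit showed the same sign with a single call (2.63%, against 9.99% of all genes). RPLP1, an acidic protein of the stalk that recruits translation factors, read 13.55, 13.70 and 13.85 in ND and 13.43, 13.55 and 13.64 in controls, with 7 of 10 ND animals above the highest control. It rose by 0.14 ± 0.04, or 9.88% (limma adjusted p = 0.0320). The call was lost without any 1 of ND_86, ND_92, Control_155, Control_157, Control_187 or Control_190 (adjusted p 0.0511 to 0.0611), and also with quantile normalization, which left a difference of 0.13 (adjusted p = 0.0504).

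Of the 38 large-subunit genes, 37 had a difference above 0, and the median was 0.12. At an unadjusted p under 0.05, 20 were higher and 0 lower, against 14.3% and 15.7% of all genes. Under the same median shift, 30 of 38 remained above 0 but the median was 0.03, with 0 called higher and 1 lower, and with quantile normalization the median was 0.10 with 6 called higher. RPL12 read 13.53, 13.76 and 14.04 in ND and 13.40, 13.55 and 13.76 in controls (0.20 ± 0.07, limma adjusted p = 0.0703). RPLP0, the base of the stalk, read 14.39, 14.54 and 14.66 against 14.32, 14.41 and 14.56 (0.12 ± 0.04, adjusted p = 0.0736). RPL23, known as an inhibitor of MDM2 when free of the ribosome, read 14.35, 14.42 and 14.70 against 14.24, 14.35 and 14.46 (0.12, adjusted p = 0.0928). All 10 ND animals lay above the control mean of RPL23, and 8 of 10 above those of RPL12 and RPLP0, but the groups overlapped in each.

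The single large-subunit gene below 0 was the paralog RPL26L1, at -0.12 (10.66 to 11.29 in ND, up to 11.24 in controls, adjusted p = 0.210). RPL26L1 and RPS19BP1 were the 2 cytosolic-type genes called lower when arrays were shifted to the same median, at -0.21 and -0.26 (limma adjusted p = 0.0490 for both). Other paralogs were RPL7L1 at 0.01 (adjusted p = 0.944) and RPL22L1 at 0.19 (adjusted p = 0.322). RPL30 had the highest difference, 0.27 (5.85 to 6.82 in ND, 5.53 to 6.22 in controls, adjusted p = 0.161), from a probe set with a mean signal of 6.15. RPL26 (3.17 to 4.95 in ND, 3.70 to 4.39 in controls) and RPL37 (8.44 to 9.31 against 8.34 to 9.04) differed by 0.09 and 0.18 (adjusted p = 0.692 and 0.278). The brightest, RPL17 and RPL7 at 14.8, differed by 0.11 and 0.03 (adjusted p = 0.207 and 0.600).

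**Figure D2:**
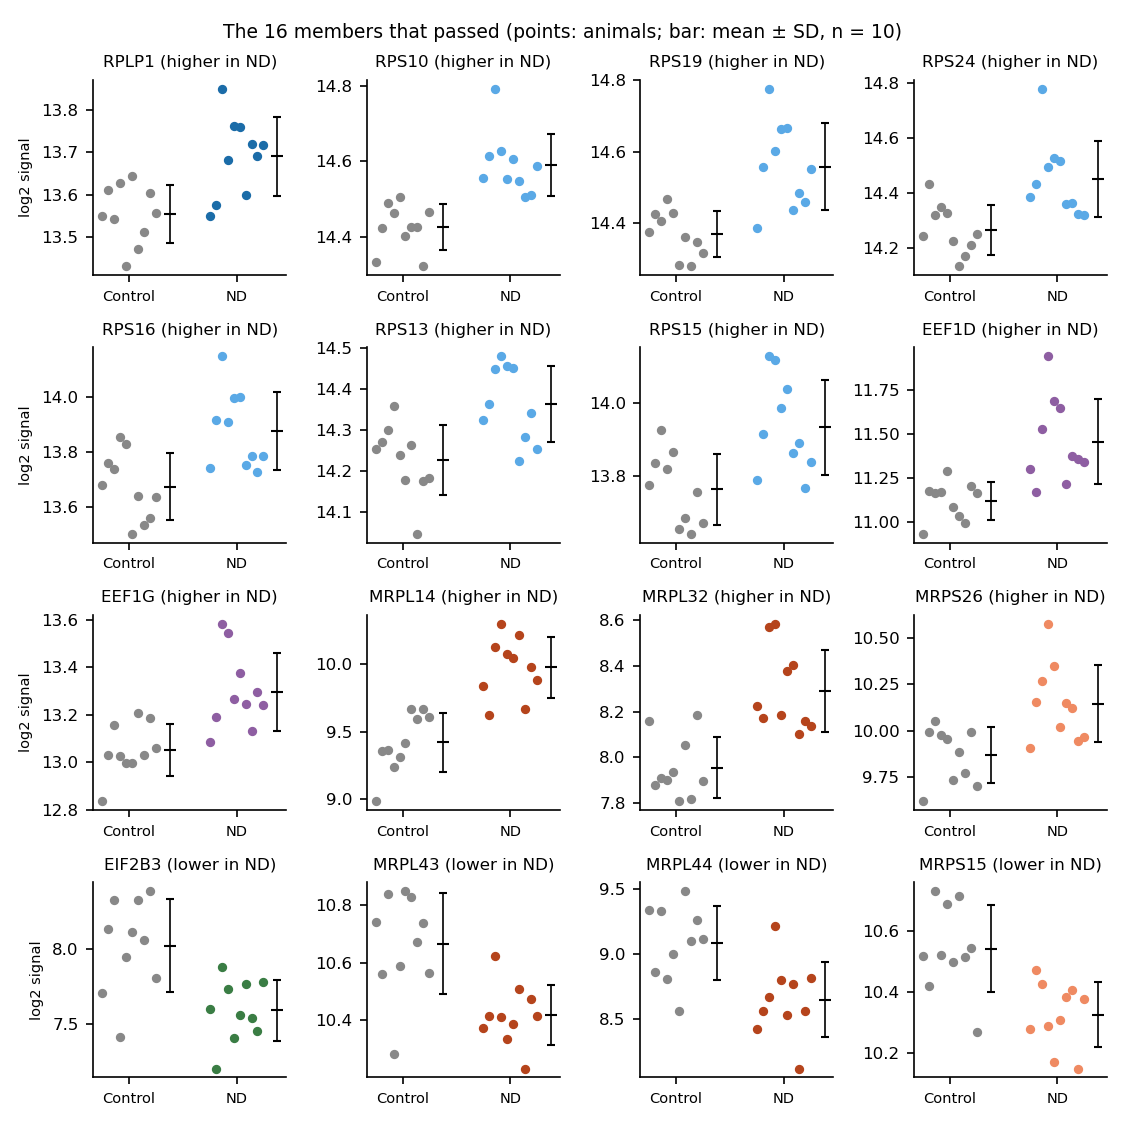
Log2 signal of each animal for the 16 genes that passed an adjusted p under 0.05, controls in grey and ND animals in the colour of their subfamily, with the mean and SD of 10 animals beside them; each panel has its own vertical range. In 12 panels the ND animals lie higher and in 4 lower, and in every panel the 2 groups overlap.

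A small number of ND animals carried the highest values of the cytosolic ribosomal proteins. The mean over the 38 large-subunit genes was 13.10, 13.21 and 13.48 in ND and 13.01, 13.11 and 13.23 in controls, with 5 ND animals above the highest control. For the small subunit it was 13.56, 13.64 and 13.90 in ND and 13.49, 13.57 and 13.65 in controls, with 4 ND animals above. ND_31 read highest of all 20 animals in 43 of the 63 genes and ND_47 in 13, while Control_190 read lowest in 22. The ND animals were also more spread out: the SD was larger in ND than in controls for 57 of 63 cytosolic genes (90.5%), against 65.4% of all genes. Without ND_31 and ND_47 the medians were 0.08 for RPL and 0.07 for RPS, RPS10 and RPS19 remained called, and 1 RPL gene (RPL26L1) was called lower.

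Array measures of RNA integrity, the 3' minus 5' gaps of control probe sets, varied with these levels. The 3' minus 5' gap of the array's EF1A control probe sets, which is wider in more degraded RNA, was narrowest in ND_31 (0.59), the animal with the highest RPL mean, and widest in Control_184 (1.504) and Control_190 (1.49), which had low RPL means. Over 20 arrays the RPL mean had a Pearson r of -0.744 with that gap (Spearman -0.743), -0.842 within 10 ND animals, -0.707 within 10 controls and -0.675 without Control_184 and Control_190. For the RPS mean r was -0.740, for MRPL and MRPS -0.0885 and 0.136, and for EIF and EEF -0.541 and -0.438. With the actin gap, whose message is not of the translation machinery, r of the RPL mean was -0.661 (Spearman -0.577), -0.818 within ND, -0.523 within controls and -0.544 without ND_47 and Control_199. For the other means r with the actin gap was -0.532 (RPS), -0.292 (MRPL), -0.186 (MRPS), -0.720 (EIF) and -0.580 (EEF). With the GAPDH gap r of the RPL mean was -0.524 (Spearman -0.389), -0.478 within ND and -0.439 within controls. Without Control_190 and Control_199 it was -0.396. The MRPL mean had an r of -0.135 with the GAPDH gap over 20 arrays and -0.492 within controls. The EF1A message is itself of the translation machinery. Its 3' control read 15.30 to 15.39 in ND and 15.27 to 15.42 in controls. Its 5' control varied more, from 13.97 to 14.74 in ND and 13.8 to 14.50 in controls. Both measures in each pair come from the same arrays.

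Models with such a gap as a term were run after seeing the data. With the EF1A gap the medians were 0.08 for RPL and 0.06 for RPS, and 8 of the 163 were called higher and 8 lower, against 10.6% of all genes called. RPS24, RPS13, RPS15, RPLP1 and MRPS26 were then lost (limma adjusted p = 0.0669, 0.0670, 0.0806, 0.0550 and 0.0793). With the actin gap the medians were 0.11 and 0.09, all 16 calls were kept, and 14 were called higher and 8 lower, against 11.4% of all genes.

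Level also differed with animal number within the controls. The large-subunit mean lay at 13.01 to 13.08 in the 5 controls with high numbers and at 13.17 to 13.23 in the 4 with middle numbers, with 35 of 38 RPL genes and 22 of 25 RPS genes lower in the former. The median of these differences between controls was -0.17 for RPL and -0.13 for RPS. The EF1A gap was 0.96 to 1.504 in those 5 controls and 0.80 to 1.16 in the 4, and its part in that difference was not tested. Among animals with high numbers alone (3 ND, 5 controls), 32 of 38 RPL genes and 21 of 25 RPS genes were above 0, with medians of 0.09 and 0.09. There 0 genes of the 163 passed, where 0.325% of all genes did. That comparison used the controls in which most RPL and RPS genes read lower. The RPL mean of those 3 ND animals was 13.13 to 13.14, below all 4 middle-numbered controls. Their RPS mean was 13.56 to 13.64, against 13.62 to 13.65 in those 4 controls. Among animals with low numbers there was 1 control, so no comparison was made. With a term for numbers up to 100 in the model, 1 of the 163 was called higher and 1 lower, against 2.78% of all genes called, and none of these was cytosolic. The medians under that term were 0.07 for RPL, 0.06 for RPS, -0.16 for MRPL and -0.19 for MRPS. What came with a low animal number and what came with ND cannot be fully told apart.

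**Figure D3:**
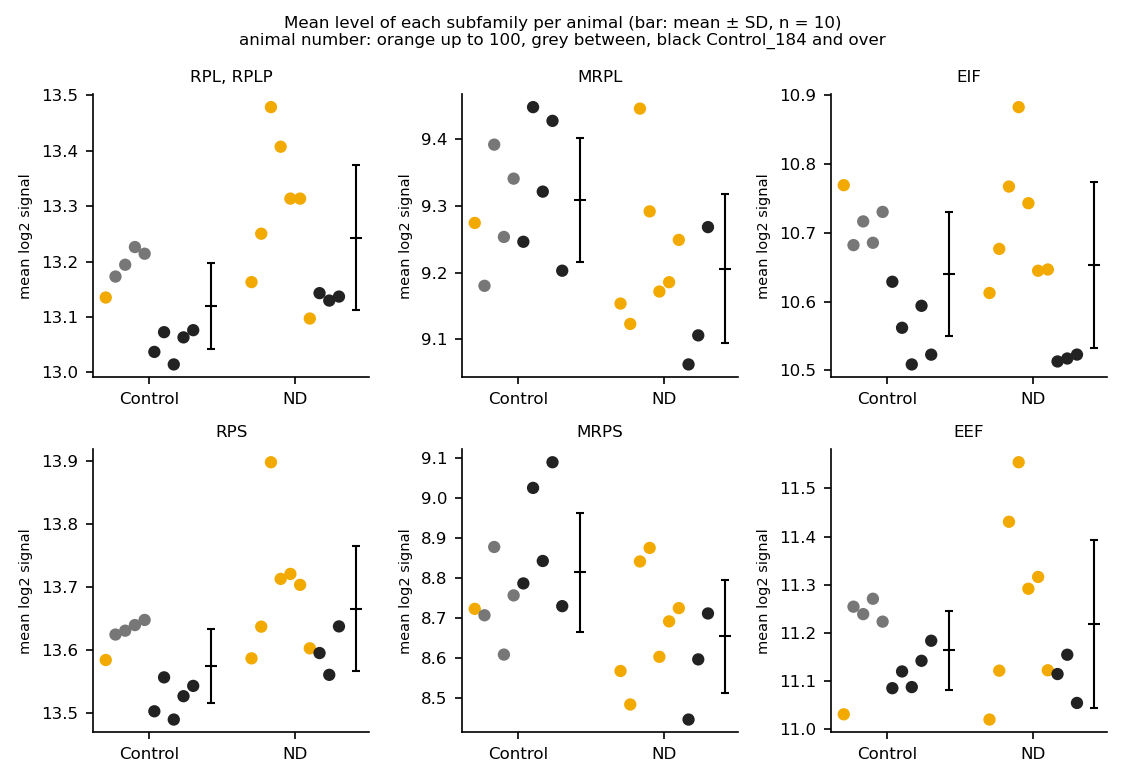
Mean log2 signal of each subfamily in each of the 20 animals, with the mean and SD of 10 animals per group beside the points; orange marks low animal numbers (up to 100), grey middle ones and black high ones (Control_184 onwards). The RPL mean runs from 13.10 to 13.48 in ND and from 13.01 to 13.23 in controls, and the 5 controls with high numbers all lie under the 4 with middle numbers.

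Other genes of high signal mostly had the opposite sign. Signals of different probe sets do not rank the abundance of their genes, but they show which part of the array's range a gene uses. The 57 of the 163 genes with a mean of 13 or more all had a difference above 0 (median 0.13, 8 called higher, 0 lower; 42 above 0 with a median of 0.04 after the shift to the same median), and 52 of the 57 were cytosolic ribosomal proteins. Of the 165 other genes in that range, 36.4% were above 0 (median -0.04, 4 called higher, 12 lower, and -0.13 after that shift). Their mean per array was 13.71 in ND and 13.80 in controls, with 8 of 10 ND animals below the lowest control. Between 7 and 9, where many mitochondrial ribosomal proteins lie, the median was -0.12 for 31 of the 163 genes and 0.02 for 1661 other genes. Between 9 and 11, where many others of them lie, it was -0.08 for 47 of the 163 and -0.01 for 1423 other genes. These ranges were chosen after the values were seen.

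**Figure D4:**
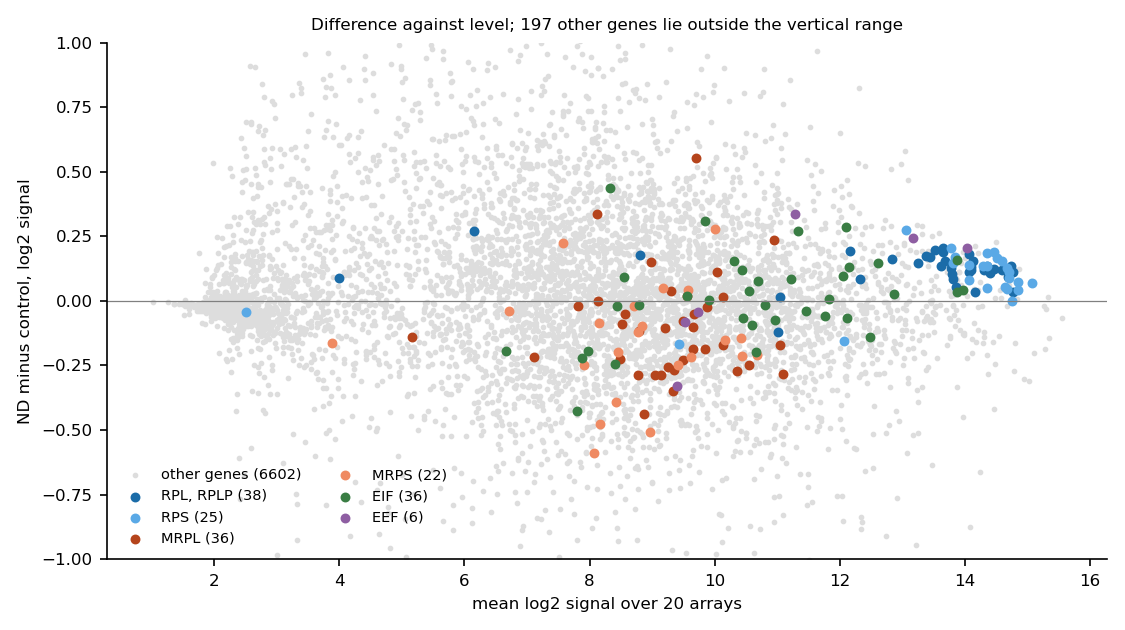
Difference between ND and control against the mean log2 signal over 20 arrays, with the 163 genes coloured by subfamily over 6602 other genes in grey, some of which lie outside the vertical range. Cytosolic ribosomal proteins form a group above 0 at signals of 13 and over, on the scale as deposited, while mitochondrial ribosomal proteins lie mostly below 0 at middle signals.

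Different probe sets of the same gene did not always give the same sign. Of the 163 genes, 109 had 1 probe set, and the other 54 had 73 dimmer probe sets beside the one used. Of the 73, 7 passed (9.59%, against 7.13% of all probe sets), all of them lower in ND (3.33% of all probe sets were), and in each case the brightest probe set of that gene had not passed. Of these, 4 belonged to large-subunit genes. The dimmer probe set of RPL17 read 7.20, 7.74 and 8.16 in ND and 8.15, 8.32 and 8.60 in controls, a difference of -0.64 ± 0.10 (limma adjusted p = 0.00056), while the brightest was at 0.11. That of RPL12 read 4.95, 5.77 and 6.12 against 6.10, 6.31 and 6.50 (-0.61 ± 0.12, adjusted p = 0.00547), and that of RPL23 read 6.68, 7.44 and 7.83 against 7.81, 8.01 and 8.26 (-0.61 ± 0.11, adjusted p = 0.00283). In all 3, 9 of 10 ND animals lay below the lowest control. RPL32 (-0.29, adjusted p = 0.0143), EIF5B (-0.40, adjusted p = 0.0448), MRPL3 (-0.29, adjusted p = 0.0499) and MRPS12 (-0.46, adjusted p = 0.0137) made up the rest.

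The brightest minus the dimmer probe set of RPL12 was 7.58 to 8.67 in ND and 7.06 to 7.51 in controls, so all 10 ND animals exceeded the highest control; for RPL17, RPL23 and RPL32 9 of 10 did. For EIF5B 4 of 10 did, for MRPL3 0 of 10 did, and for MRPS12 0 of 10 did, with a gap that was lower in ND by 0.13 on average. These gaps were examined because the dimmer probe sets had passed, and no test was made of them. Over the 21 dimmer large-subunit probe sets the median was -0.07, against 0.12 for the brightest of the same 16 genes. Over the 11 dimmer RPS probe sets it was -0.03, against 0.11 for the brightest of the same 8 genes. Over all 73, 32 had the opposite sign to the brightest. Taking the mean of all probe sets of a gene turned RPL17 to -0.26 (limma adjusted p = 0.00244) and left 30 of 38 RPL genes above 0 with a median of 0.11. For RPS it left 19 of 25 genes above 0 with a median of 0.07. In the other direction, a dimmer probe set of the ubiquitin fusion gene RPS27A differed by 0.93, from 7.59 to 9.08 in ND against 5.42 to 8.46 in controls, without passing (adjusted p = 0.0825). What sequence each probe set reads was not examined here. A further 20 probe sets carry several symbols of which at least 1 fits the rule; 3 were called higher and 0 lower, and their genes are not named.

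**Figure D5:**
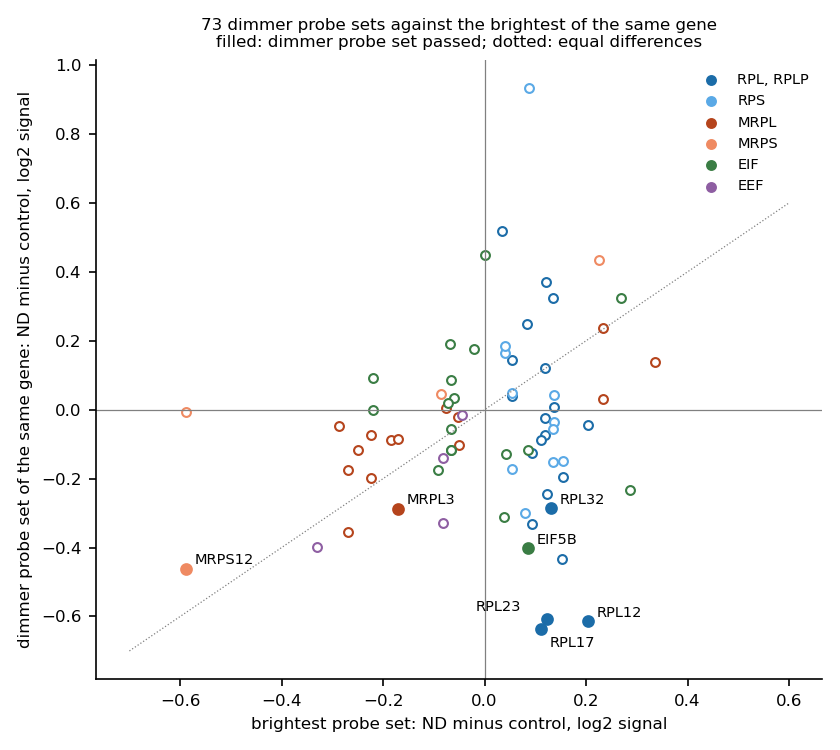
Difference between ND and control for 73 dimmer probe sets against that of the brightest probe set of the same gene, in log2 signal; filled points are dimmer probe sets that passed an adjusted p under 0.05, and the dotted line marks equal differences. The 3 lowest points, RPL17, RPL12 and RPL23, lie near -0.6 for the dimmer and between 0.11 and 0.20 for the brightest probe set.

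Mitochondrial ribosomal proteins mostly read lower in ND, but the largest single rise of the 163 genes was among them. Of 36 large-subunit genes 28 had a difference below 0 (median -0.13), and 4 passed, 2 in each direction. That share of 11.1% was close to the 9.99% of all genes. The sign of the median was the same with arrays shifted to the same median (-0.22, 13 called lower, where 24.3% of all genes were) and with quantile normalization (-0.14, 3 called lower).

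MRPL14, a protein at the interface between the subunits, read 9.62, 10.01 and 10.30 in ND and 8.99, 9.39 and 9.67 in controls. All 10 ND animals lay above the control mean and 8 above the highest control. It rose by 0.55 ± 0.10, or 46.8% (limma adjusted p = 0.00181). It was the only gene of the 163 still among the calls of the main comparison with the term for animal number (0.56, adjusted p = 0.0254). Among high-numbered animals its difference was 0.25 (adjusted p = 0.285). MRPL32, a protein matured by the mitochondrial AAA protease before it can join the ribosome, read 8.10, 8.20 and 8.58 in ND and 7.81, 7.91 and 8.18 in controls. It rose by 0.34 ± 0.07 (limma adjusted p = 0.00602), with 6 of 10 ND animals above the highest control. With the term for animal number its difference was 0.20 (adjusted p = 0.189), and among high-numbered animals 0.18 (adjusted p = 0.455). Both calls held without any 1 animal.

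MRPL43 read 10.23, 10.41 and 10.62 in ND and 10.28, 10.71 and 10.85 in controls, and 0 of 10 ND animals reached the control mean. It fell by 0.25 on the log2 scale (SE 0.06, limma adjusted p = 0.0210), and the call held without any 1 animal. MRPL44, which resembles ribonuclease III and is mutated in an infantile cardiomyopathy, read 8.12, 8.61 and 9.21 in ND and 8.56, 9.11 and 9.48 in controls. It fell by 0.44 (SE 0.13, limma adjusted p = 0.0385) with 1 ND animal above the control mean. That call was lost without any 1 of ND_01, ND_22, ND_92, ND_194, Control_02, Control_155, Control_157, Control_187, Control_190 or Control_197 (adjusted p 0.0512 to 0.0680). MRPL28 (10.47, 11.01 and 11.26 in ND, 10.97, 11.32 and 11.47 in controls) and MRPL50 (8.60, 9.19 and 9.49 against 9.19, 9.55 and 9.69) differed by -0.29 and -0.35 without passing (adjusted p = 0.0719 and 0.0761). MRPL3, with a high signal for its subfamily, differed by -0.17 (adjusted p = 0.329), MRPL2 by -0.08 (adjusted p = 0.722) and the dim MRPL24 by -0.14 (adjusted p = 0.307).

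In the mitochondrial small subunit 18 of 22 genes were below 0 (median -0.16), with 1 call in each direction. That share of 9.09% was close to the 9.99% of all genes. MRPS15 read 10.15, 10.34 and 10.47 in ND and 10.27, 10.52 and 10.73 in controls, with 0 of 10 ND animals above the control mean. It fell by 0.22 (SE 0.06, limma adjusted p = 0.0228), and the call held without any 1 animal. MRPS26 read 9.91, 10.14 and 10.58 in ND and 9.62, 9.92 and 10.05 in controls, with 6 of 10 ND animals above the highest control. It rose by 0.28 ± 0.08 (limma adjusted p = 0.0403), a call lost without any 1 of Control_02, Control_190, Control_187, Control_184, Control_199, ND_100, ND_86, ND_31 or ND_22 (adjusted p 0.0541 to 0.0745).

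The lowest differences of the subfamily did not pass. MRPS12, the counterpart of the bacterial protein at the decoding center, read 7.29, 7.71 and 8.61 in ND and 7.87, 8.27 and 9.16 in controls (-0.59 ± 0.18, limma adjusted p = 0.0548), although its dimmer probe set did. MRPS36, also known as a subunit of the 2-oxoglutarate dehydrogenase complex, read 8.04, 8.64 and 9.35 against 8.79, 9.17 and 9.86 (-0.51 ± 0.15, adjusted p = 0.0507). In each, 1 of 10 ND animals lay above the control mean. MRPS9 stood on the other side at 0.22 (adjusted p = 0.166), and MRPS21, MRPS17 and the dim MRPS23 differed by -0.21, -0.25 and -0.16 (adjusted p = 0.188, 0.354 and 0.444). With arrays shifted to the same median 10 of the 22 were called lower (24.3% of all genes were) and 0 higher, and with quantile normalization 2 were lower and 1 higher.

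Per animal, the MRPL mean was 9.06, 9.18 and 9.44 in ND and 9.18, 9.30 and 9.45 in controls, and the MRPS mean was 8.45, 8.65 and 8.88 against 8.61, 8.77 and 9.09. In each, 5 ND animals lay below the lowest control. ND_193 read lowest of all 20 animals in 16 of the 58 mitochondrial genes, and ND_47 read highest in 10 and lowest in 7. The signs held among high-numbered animals, where 29 of 36 MRPL genes and 21 of 22 MRPS genes were below 0, with medians of -0.19 and -0.31. High-numbered controls read above middle-numbered ones in 16 of 22 MRPS genes (median difference 0.18) and 22 of 36 MRPL genes (median 0.05). Over all animals the ND minus control median of MRPS was -0.16. The comparison among high-numbered animals thus used the controls in which most MRPS genes read higher.

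The average of the RPL and RPS means, minus that of the MRPL and MRPS means, weights the subunits equally. No shift of a whole array can change this quantity. It was 4.36, 4.53 and 4.64 in ND and 4.04, 4.31 and 4.50 in controls, 0.24 higher in ND, with 6 of 10 ND animals above the highest control. Among high-numbered animals it was 4.40 to 4.61 in 3 ND animals and 4.04 to 4.34 in 5 controls, with no overlap; the 4 middle-numbered controls lay at 4.28 to 4.50. Its difference follows from those of the subfamily means (RPL 0.12, RPS 0.09, MRPL -0.10 and MRPS -0.16) and adds no separate result. The 5 high-numbered controls were those with the lower RPL means and mostly higher MRPS genes. This quantity was not planned beforehand. As its members were chosen with results known, no p is given.

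Initiation factors showed no common direction. Of 36, 0 rose and 1 fell (2.78% called, against 9.99% of all genes). Of the same genes 20 were above 0, and the median of 0.01 turned to -0.08 with arrays shifted to the same median. The 1 call was EIF2B3, the gamma subunit of eIF2B, which recharges eIF2 with GTP. It read 7.21, 7.58 and 7.88 in ND and 7.42, 8.08 and 8.38 in controls, with 0 of 10 ND animals above the control mean. It fell by 0.43 (SE 0.11, limma adjusted p = 0.0268), and the call was lost without ND_86 or without Control_155 (adjusted p 0.0503 to 0.0509). Of the other 7 genes of eIF2, eIF2B and relatives, EIF2S1, the subunit that stress kinases phosphorylate, read 10.46 to 11.42 in ND and 10.60 to 11.08 in controls (-0.02, adjusted p = 0.916). EIF2B2 differed by -0.24 (adjusted p = 0.219) and EIF2D, which can place initiator tRNA without eIF2, by -0.19 (adjusted p = 0.105).

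EIF2AK2, the kinase PKR that double-stranded RNA activates and interferon induces, was the only eIF2 kinase measured. It read 7.95, 8.47 and 9.53 in ND and 7.43, 8.01 and 9.68 in controls. Control_134 was the highest animal of all, and 9 of 10 ND animals lay above the control mean. The difference of 0.44 ± 0.23 did not pass (limma adjusted p = 0.207).

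The 9 measured subunits of eIF3, the scaffold on the small subunit, all had a difference above 0 (median 0.12; 7 of 9 and 0.03 with arrays shifted to the same median), but 0 passed. EIF3M was the nearest, at 11.92, 12.22 and 12.58 in ND and 11.66, 11.95 and 12.28 in controls (0.29 ± 0.09, limma adjusted p = 0.0538). Of the 10 eIF4 genes, 4 were above 0 and 0 passed. The cap-binding protein EIF4E read 7.48, 7.65 and 9.0 in ND and 7.81, 8.01 and 8.33 in controls (-0.19, adjusted p = 0.381), with ND_47 far above the other ND animals. Without ND_31 and ND_47 its difference was -0.38 (adjusted p = 0.0140). The scaffold EIF4G1 (-0.09, adjusted p = 0.647), the helicases EIF4A1 (-0.04, adjusted p = 0.884) and EIF4A2 (0.16, adjusted p = 0.263), the cap-binding relative EIF4E2 (-0.22, adjusted p = 0.509) and the repressor EIF4EBP2 (-0.07, adjusted p = 0.772) did not pass. Their 95% intervals were -0.38 to 0.20 for EIF4G1 and -0.38 to 0.25 for EIF4EBP2.

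Of the 7 genes of eIF1, eIF5, eIF5A, eIF5B and eIF6, 3 were above 0 and 0 passed. EIF6, which keeps the large subunit from joining too early, read 9.62, 9.97 and 10.36 in ND and 9.40, 9.64 and 10.01 in controls (0.31 ± 0.10, limma adjusted p = 0.0714), with 4 ND animals above the highest control. EIF1, which guards start codon choice, differed by 0.04 (adjusted p = 0.564), EIF5A, the factor that carries hypusine, by -0.07 (adjusted p = 0.444), and EIF5B, which joins the subunits, by 0.09 (adjusted p = 0.702).

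Of the 6 genes named for elongation factors 2 rose (33.3%, against 5.44% of all genes). Both belong to the complex that exchanges GDP for GTP on eEF1A. EEF1D, its delta subunit, read 11.17, 11.37 and 11.94 in ND and 10.93, 11.16 and 11.29 in controls, with 8 of 10 ND animals above the highest control. It rose by 0.34 ± 0.08, or 26.2% (limma adjusted p = 0.0169). EEF1G, the gamma subunit, read 13.08, 13.26 and 13.58 against 12.84, 13.03 and 13.21, with 7 of 10 above, and rose by 0.24 ± 0.06 (limma adjusted p = 0.0202). Both calls held without any 1 animal, but with arrays shifted to the same median EEF1G was at 0.15 and did not pass (adjusted p = 0.0664). The beta subunit EEF1B2 read 13.85, 14.12 and 14.51 in ND and 13.62, 13.91 and 14.22 in controls, with 9 of 10 ND animals above the control mean (0.20 ± 0.08, adjusted p = 0.131).

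EEF1E1, a member of the multisynthetase complex rather than an elongation factor, read 8.69, 9.20 and 10.37 in ND and 9.29, 9.56 and 9.88 in controls (-0.33 ± 0.15, adjusted p = 0.151). Its highest ND animal, ND_47, stood apart, and without ND_31 and ND_47 the difference was -0.47 (limma adjusted p = 0.00468). EEF1A1, which delivers aminoacyl-tRNA, differed by -0.08 (adjusted p = 0.510), from 9.18 to 9.69 in ND and 9.06 to 9.84 in controls. The array's own control probe sets for the same message were not part of the comparison, and the middle one read 14.91 to 15.20 in ND and 14.83 to 15.19 in controls (two-sided permutation p = 0.300). The 3' minus 5' gap of that message, a measure of RNA integrity, was 0.96 in ND and 1.1 in controls (permutation p = 0.195), and that of GAPDH 1.67 and 1.85 (permutation p = 0.0874); the control for 18S rRNA read 11.53 in ND and 11.93 in controls (permutation p = 0.132). Over 7 such control measures the lowest adjusted p was 0.341.

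Lists of genes that work beside these 163 under other symbols differed in their share of calls, against 9.99% of all genes. Of 7 measured ribosomal proteins with other names 1 passed (14.3%): DAP3, a GTPase of the mitochondrial small subunit, fell by 0.19 (limma adjusted p = 0.0438). Of 60 measured ribosome biogenesis genes 1 passed (1.67%): IMP3, part of the processome of the small subunit, fell by 0.47 (SE 0.07, limma adjusted p = 0.000427). NPM1, a nucleolar chaperone of ribosome assembly, was at 0.26 (adjusted p = 0.0756). The list's median was 0.02, or -0.07 with arrays shifted to the same median.

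Of 12 other cytosolic translation factors 2 rose (16.7%, against 5.44% of all genes). They were the poly(A)-binding protein PABPC1 (0.26 ± 0.08, limma adjusted p = 0.0450) and its partner PAIP1 (0.24 ± 0.06, limma adjusted p = 0.0148). Of 21 genes of mTORC1 and eIF2 control 5 passed (23.8%, against 9.99% of all genes). ATF4, the transcription factor made when eIF2 is phosphorylated, rose by 0.67 ± 0.12 (limma adjusted p = 0.00243), and TSC2, an inhibitor of mTORC1, by 0.28 ± 0.08 (adjusted p = 0.0421). RRAGA and LAMTOR3, which bring mTORC1 to the lysosome, fell by 0.31 and 0.22 (limma adjusted p = 0.0182 and 0.0206), and the inhibitor SESN1 fell by 0.50 (adjusted p = 0.0480). Of 17 cytosolic tRNA synthetase genes 0 passed, with 1 at an unadjusted p under 0.05; the nearest were SARS at 0.38 (adjusted p = 0.111) and AARS at -0.20 (adjusted p = 0.223). Of 16 genes of mitochondrial translation and transcription 15 were below 0 (median -0.17) and 0 passed, with 4 lower at an unadjusted p under 0.05. GFM1, the mitochondrial elongation factor G, was the nearest at -0.34 (adjusted p = 0.0652), followed by TFAM, which packs and transcribes mitochondrial DNA, at -0.17 (adjusted p = 0.126).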

How the data were processed

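The table the authors deposited holds a single value for each array and probe set. The values were taken as log2 signals from their range, 0.88 to 16.2, since the deposited table does not state the unit, and the summarization and normalization are not given in the sources used here. Per the labels' protocols, 250 ng of total RNA per sample were made into biotin-labelled cRNA. Of 24123 probe sets, 124 control probe sets were left out. Platform annotation gave 10069 of 23999 a single symbol, 198 several and 13732 none here, and 161 of the 163 genes had an Entrez ID in a RefSeq table, with 0 symbols changed. Background was the highest tag or tryptophan control value, 2.79.

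ND and control arrays were compared in R 4.3.3 by limma 3.58.1 (lmFit, then eBayes, two-sided, no covariate), tested on simulated data. The p-values were adjusted over 23999 probe sets at 0.05. Alternatives were a shift of arrays to the same median, quantile normalization, a filter on dim probe sets, eBayes with trend and robust, array weights, the mean of a gene's probe sets, a term for animal number, a term for the 3' minus 5' gap, other thresholds and leaving out animals. Controls of RNA integrity used permutation tests with 100000 resamples. The members and gene lists were chosen with earlier results of these data known. Named genes were all calls, the extremes of each subfamily by p, difference, signal and control SD, 19 preset names of which 13 were measured, genes with only a dimmer probe set called, and called or lowest-p genes of each related list; RPS27A and the high-signal bands were added after their values were seen. The cytosolic minus mitochondrial ribosome quantity was not planned beforehand. No start-site or protein sequence was used. The number of arrays limits the precision.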

Additional observations from a re-analysis of the deposited data

Results flagged for a closer look

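Of 142 groups of 10 animals examined for the named genes and subfamily means, 16 held an animal whose gap to the next was above the 95% limit of Dixon's test. Chance flags about 1 in 20 independent groups that were not picked by their values. That rate does not carry over here, since genes were named partly for control SD or extreme difference and share the same animals. ND_31 stood above the other ND animals in RPS10 (14.79, others up to 14.63), RPS24 (14.78, up to 14.53), RPS27 (15.24, up to 14.76), RPS27L (12.65, up to 12.15), EIF2AK2 (9.53, up to 8.79) and the RPS mean (13.90, up to 13.72). ND_47 did so in RPL7L1 (11.85, up to 11.25), EIF4E (9.0, up to 8.26), EIF5A (11.39, up to 11.03) and EEF1E1 (10.37, up to 9.33). ND_100 was high in MRPL24 (5.59).

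Among controls, Control_134 was high in EIF2AK2 (9.68, others up to 8.33), Control_155 in RPL26 (4.39) and Control_02 in EIF1 (14.16, up to 13.99). Control_156 was low in RPL30 (5.53, others from 5.91) and in MRPL43 (10.28, from 10.56). Their causes were not tested.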

How the results depend on the processing

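The main counts were 12 higher and 4 lower (RPL 1 and 0, RPS 6 and 0, MRPL 2 and 2, MRPS 1 and 1, EIF 0 and 1, EEF 2 and 0). Counts below give higher, then lower. Shifting arrays to the same median, which lowers the gene median from -0.02 to -0.11, gave 3 and 30 (all genes 404 and 1644, main 368 and 308): RPL 0 and 1, RPS 0 and 1 (median 0.021), MRPL 2 and 13, MRPS 0 and 10, EIF 0 and 4, EEF 1 and 1. Quantile normalization gave 20 and 7, with RPL 6 higher, MRPS 2 lower and EIF 2 and 2. Keeping probe sets above background on at least 5 arrays gave RPL 0 and RPS 2 higher, MRPS 3 lower and EIF 1 higher. eBayes with trend and robust gave 6 higher: RPL 0, RPS 2, MRPS 0 and 0. Array weights gave 6 and 12: RPL 0, RPS 3 higher, MRPL 6 lower, MRPS 0 and 4, EEF 1 and 1. Mean probe sets gave 7 lower, with RPL 0 and 1 and MRPS 2 lower, and reversed RPL17 to -0.26.

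The term for animal number gave 1 and 1, both in MRPL, and 0 in each other subfamily. Animals with high numbers only gave 0 and 0, with the MRPS median at -0.31. Without ND_47 and ND_92 the counts were 5 and 8: RPL 0, RPS 2, MRPS 0 and 3, EEF 1 and 1. Without ND_31 and ND_47 (chosen after seeing the data) they were 6 and 16: RPL 0 and 1, RPS 2, MRPL 6 lower, MRPS 0 and 5, EIF 3 lower, EEF 1 lower. Terms for 3' minus 5' gaps (chosen after seeing the data) gave, for EF1A, 8 and 8 (RPL 0, RPS 3 higher, MRPL 5 lower, MRPS 0 and 2) and, for actin, 14 and 8 (RPL 2 higher, MRPL 5 lower, MRPS 2 lower, EIF 1 higher). An adjusted p under 0.01 gave 3 and 0 (RPS 1, MRPL 2, the rest 0), under 0.1 gave 24 and 14 (RPL 7 higher, MRPL 8 and MRPS 5 lower, EIF 2 higher), and a fold of at least 1.2 gave 4 and 2 (RPL 0, RPS 0, MRPL 1 lower, MRPS 0 lower, EEF 1 higher). The causes were not tested.

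Leaving out each animal gave 6 to 15 higher and 3 to 11 lower: RPL 0 to 3 higher, RPS 2 to 6 higher, MRPL 1 to 6 lower, MRPS 0 to 1 higher and 1 to 3 lower, EIF 0 to 2 higher and 0 to 2 lower, EEF 0 to 1 lower. The RPL, RPS, MRPL and MRPS medians kept their sign under every setting run, and the EIF and EEF medians did not. No paired analysis was possible because the groups share no animal number.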
